A study of Mus musculus with 3 samples.

Results

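Cluster 18 is a group of 1000 cells, of 26008 kept from the iridocorneal angle and limbus of the mouse eye, with high levels of *Ptn*, *Enpp2* and *Igf1*. Its members are the cells that carry the label 18 in the authors' cell tables, matched by barcode to the UMI counts of the 3 libraries (a UMI is 1 captured RNA molecule). They were 301 of 9076 kept cells in control replicate 1, 165 of 10160 in control replicate 2 and 534 of 6772 in *Angpt1*ΔNC. Control mice were *Angpt1* flox/flox, and *Angpt1*ΔNC mice were *Angpt1* flox/flox;Wnt1Cre+, in which Cre acts in cells of neural crest origin. All were 6 weeks old, of mixed strain and crossed to ICR mice for albino litters, and each library pooled 2 to 3 animals. The *Angpt1*ΔNC group is a single library, so genotype cannot be told apart from anything else that is particular to this pool.

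The stroma of the anterior eye derives largely from the neural crest and surrounds Schlemm's canal, the vessel that drains the aqueous humor. Stromal cells of this kind lay down matrix and release growth factors that act on vessels, epithelia and melanocytes nearby. *Ptn* encodes pleiotrophin, a heparin-binding growth factor, *Enpp2* encodes autotaxin, the secreted enzyme that makes lysophosphatidic acid, *Igf1* encodes insulin-like growth factor 1, and *Wnt10a* encodes a secreted Wnt ligand.

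Promoters are shown for *Ptn* and *Igf1*, the marker genes with an entry in the RefSeq table (GRCm38.p6, 250 bases before to 50 after the start), since their RNA sets these cells apart. Capitals mark AGGTCA, a short motif known for retinoid receptors, or TATAAA, each searched on both strands.
*Ptn*, chr6:36810130-36810429, minus strand: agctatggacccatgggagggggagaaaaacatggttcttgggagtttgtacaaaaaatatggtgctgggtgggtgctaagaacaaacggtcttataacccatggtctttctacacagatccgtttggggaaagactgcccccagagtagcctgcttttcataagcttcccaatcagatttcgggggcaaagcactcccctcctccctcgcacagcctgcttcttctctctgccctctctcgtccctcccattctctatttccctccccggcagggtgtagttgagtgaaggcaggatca
*Igf1*, chr10:87860861-87861160, plus strand: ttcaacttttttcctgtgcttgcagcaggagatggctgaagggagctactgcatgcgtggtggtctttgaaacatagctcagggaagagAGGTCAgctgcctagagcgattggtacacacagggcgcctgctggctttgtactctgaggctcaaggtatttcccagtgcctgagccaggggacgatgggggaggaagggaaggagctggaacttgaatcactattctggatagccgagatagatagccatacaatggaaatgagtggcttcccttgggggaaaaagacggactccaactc
The *Ptn* window held neither motif, and the *Igf1* window held AGGTCA once, at base 90. Of 32851 promoter windows of this length, 16.3% held AGGTCA and 13.6% held TATAAA. A match describes the letters of a window and not binding.

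Values given in threes below are in the order control replicate 1, control replicate 2, *Angpt1*ΔNC. Cluster 18 held 1620400, 805177 and 3939419 UMIs, with a median of 5065, 4801 and 5818 per cell, and median mitochondrial UMIs were 3.69%, 4.80% and 4.74%. Of its 1000 cells, 6 shared a barcode with a kept cell of another library. The pools were described as mixed in sex, but the controls held 3 and 2 *Xist* UMIs over all kept cells, against 43346 in *Angpt1*ΔNC. Within cluster 18, 227, 120 and 215 cells were typed as male, by UMIs of Y-linked genes without *Xist*, and 0, 0 and 266 as female, by *Xist* without Y-linked genes.

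The share of kept cells that fell in cluster 18 was 3.32%, 1.62% and 7.89%. The exact 95% Clopper-Pearson intervals were 2.96 to 3.71%, 1.39 to 1.89% and 7.25 to 8.55%, and they cover counting error only. *Angpt1*ΔNC held the highest share, but the controls also differed by more than their intervals, and 2 libraries against 1 were not tested. Over clusters 17 and 18 and the groups TM1 to TM11, which include the corneal endothelium of TM2, the shares were 8.43%, 3.74% and 15.8%.

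The marker genes were high in cluster 18 in every library. A level here is the average, over cells, of a gene's UMIs per 10,000 UMIs of the cell. The level of *Ptn* (chr6:36714929-36810220, minus strand, GRCm38) was 199, 158 and 178, and 100%, 98.8% and 100% of cells carried it. The level of *Enpp2* (chr15:54838901-54952892, minus strand) was 16.3, 9.04 and 7.92, with a UMI in 96.3%, 84.2% and 91.8% of cells. The level of *Igf1* (chr10:87858265-87937042, plus strand) was 17.003, 6.06 and 8.91, in 89.0%, 68.5% and 84.1% of cells. For *Enpp2* and *Igf1*, control replicate 1 was the highest library, and the other control lay nearer to *Angpt1*ΔNC than to it. The level of *Wnt10a* (chr1:74791516-74804179, plus strand) was 3.22, 1.73 and 1.60, in 62.5%, 35.8% and 49.1% of cells.

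The labels were made from expression, so differences between labels are a description and were not tested. Among labels with at least 20 cells in a library, cluster 18 had the highest mean of all 4 genes in each library. For *Ptn* the next label was TM9, at 25.1, 29.5 and 64.3. For *Enpp2* it was cluster 1, the retinal pigment epithelium, at 11.9 and 8.85 in the controls, and TM9 at 1.07 in *Angpt1*ΔNC, where cluster 1 had under 20 cells. For *Igf1* cluster 13 followed at 4.80, 4.05 and 1.80, and for *Wnt10a* the limbal epithelium of cluster 4 followed at 1.51, 1.69 and 0.832. In control replicate 2 the gap was narrow for *Enpp2* and *Wnt10a*. Against all other kept cells, with 0.1 added to both levels, the ratio was 46.5 ± 24.7 for *Ptn*, 23.8 ± 6.80 for *Enpp2*, 16.2 ± 7.56 for *Igf1* and 9.16 ± 4.07 for *Wnt10a* (SD, n = 3 libraries).

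**Figure D1:**
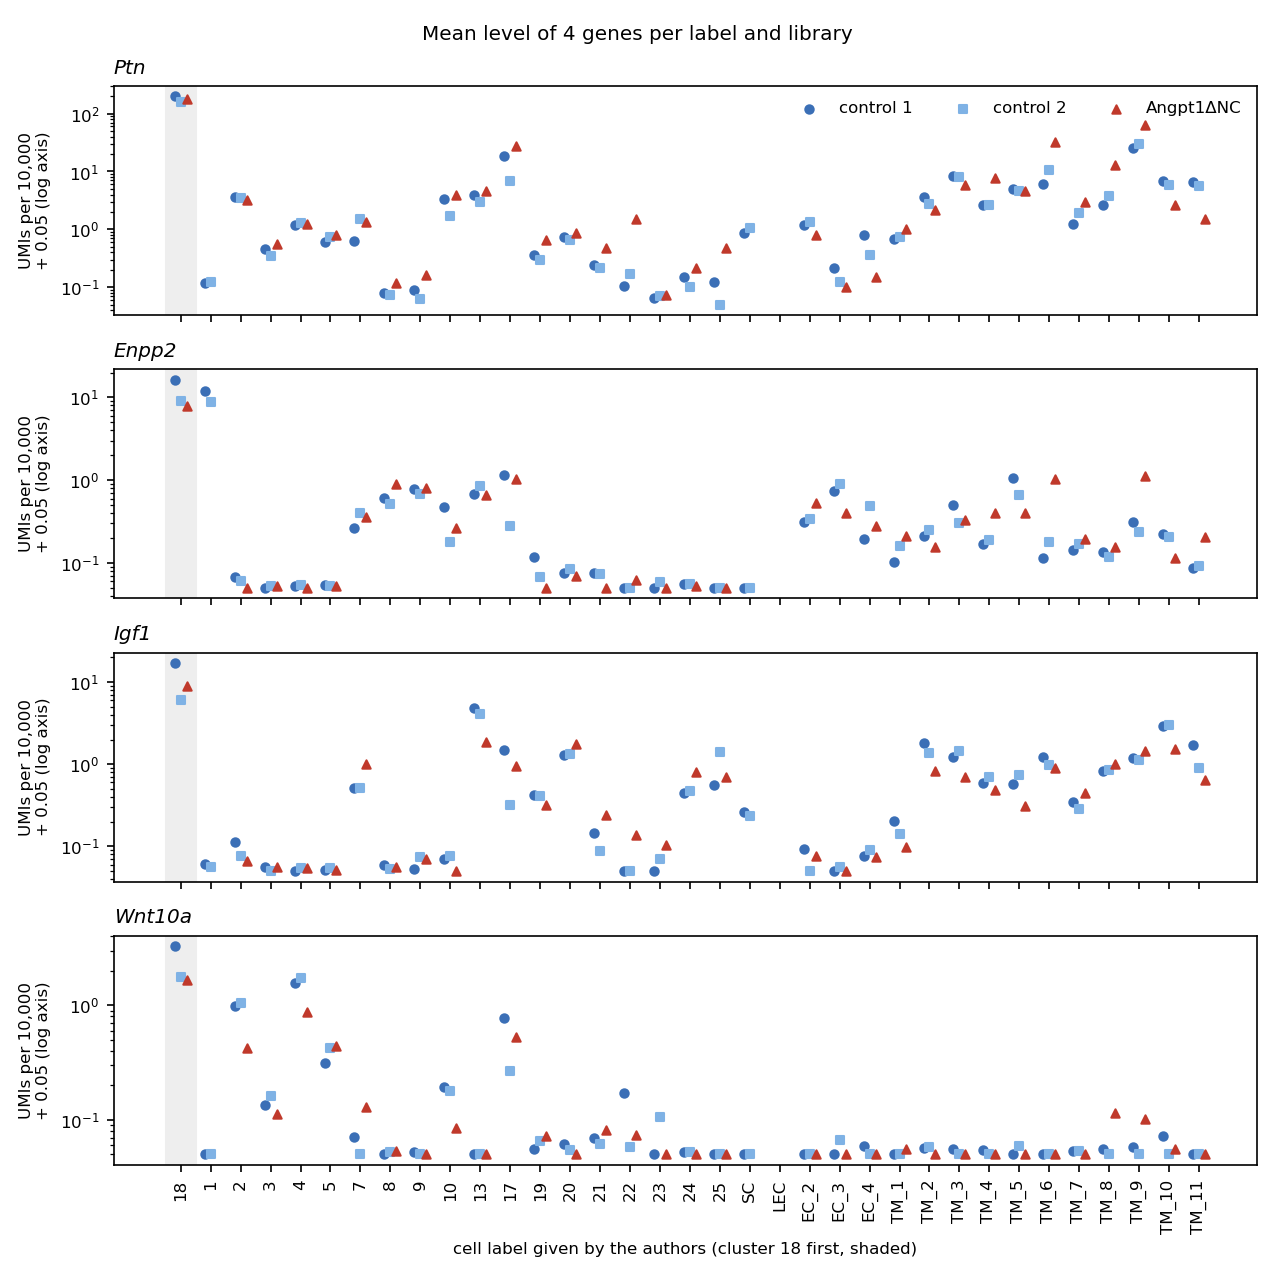
Mean level (UMIs per 10,000, with 0.05 added, log axis) of 4 genes in each label on the x axis, with 1 point per library (circle and square, controls; triangle, *Angpt1*ΔNC); labels under 20 cells in a library have no point. Cluster 18, shaded at the left, is the highest label for each gene, and cluster 1 for *Enpp2* and cluster 4 for *Wnt10a* come close in control replicate 2.

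*Ptn* UMIs were also found outside the stroma. They were seen in 55.3%, 60.6% and 69.2% of limbal and corneal epithelial cells (clusters 4 and 5), whose median depths were 17717, 15168 and 15135 UMIs. With each cell thinned to 2000 UMIs the epithelial shares were 14.8%, 16.6% and 19.1%, against 100%, 99.4% and 100% in cluster 18. The level of *Ptn* was 1.16, 1.21 and 1.19 in the epithelium of cluster 4, and 0.0296, 0.0246 and 0.0686 in the melanocytes of cluster 8. Whether the epithelial UMIs were expressed there or free RNA was not tested. *Enpp2* after thinning was found in 0.102%, 0% and 0% of epithelial cells and in 88.1%, 69.2% and 73.1% of cluster 18 cells. For *Igf1* the thinned shares were 0%, 0.198% and 0% in epithelium and 82.0%, 47.2% and 63.3% in cluster 18. *Wnt10a* was found in 48.3%, 53.6% and 49.6% of epithelial cells before thinning, above its share in cluster 18 in control replicate 2 and *Angpt1*ΔNC but not in control replicate 1, and after thinning in 12.2%, 17.3% and 12.9%, against 39.5%, 22.01% and 25.2% in cluster 18. Thinning left out 7, 6 and 3 cells of cluster 18 and 8, 4 and 5 epithelial cells.

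Cells of the cluster differed in how many markers they carried. All 4 were found in 58.8%, 30.9% and 42.3% of cells, and neither *Enpp2* nor *Igf1* in 1.99%, 10.9% and 3.18%. The highest share with neither gene was that of control replicate 2, the library with the lowest median depth. With cells thinned to equal depth as above, that library still had the lowest share with *Enpp2* (88.1%, 69.2% and 73.1%). The same held for *Igf1* (82.0%, 47.2% and 63.3%). The part of depth in the share with neither gene was not tested. From the lower to the upper quartile, *Ptn* ran from 159 to 242, from 80.8 to 219.8 and from 144 to 213 UMIs per 10,000. For *Igf1* the same range was 4.92 to 25.2, 0 to 7.69 and 2.28 to 12.9. The first principal component within the cluster held 2.51%, 4.68% and 2.32% of the variance, and its absolute correlation with log UMIs was 0.597, 0.77 and 0.55 over the cells of each library.

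The 30 leading genes, ranked by the lowest of the 3 library ratios against all other kept cells, are described here by kind, with secreted factors first. *Vegfa*, the main ligand of vascular growth, stood at 11.9, 10.9 and 10.7, against 1.72, 1.99 and 1.98 in all other cells, and cluster 18 was its highest label in each library, followed by TM9. The cytokine genes *Il11* and *Lif* stood at 12.1, 11.1 and 20.8 and at 4.49, 7.05 and 8.34, against 1.67, 2.53 and 4.91 and 0.884, 1.15 and 2.17 in all other cells. Both were highest in *Angpt1*ΔNC, inside the cluster and outside it, and by the genotype comparison below *Il11* had an adjusted p of 0.0122 and *Lif* of 0.0556 (edgeR's quasi-likelihood test, Benjamini-Hochberg). *Stc1*, which encodes the secreted glycoprotein stanniocalcin, stood at 4.03, 5.06 and 11.9, against 0.581, 0.633 and 1.55, and again *Angpt1*ΔNC was the highest library in both sets of cells. The Wnt ligand *Wnt6* stood at 1.72, 1.76 and 0.911, against 0.0966, 0.124 and 0.166. In cluster 17 it stood at 1.29, 1.04 and 0.922, slightly above cluster 18 in *Angpt1*ΔNC.

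*Mmp19*, a matrix metalloproteinase, stood at 5.19, 4.76 and 4.67, against 0.213, 0.270 and 0.312. *Ecm1*, an extracellular matrix protein, stood at 18.8, 18.7 and 13.7, against 1.60, 2.13 and 3.14, and *Lamb1*, a laminin chain, at 2.38, 2.33 and 1.59, against 0.288, 0.310 and 0.281. *Tnfaip6*, whose product binds hyaluronan, stood at 30.7, 41.4 and 29.6, against 5.13, 5.01 and 6.89. *Has1*, a hyaluronan synthase, stood at 5.97, 7.08 and 5.07, against 1.19, 1.54 and 0.770. For these 5 genes the lowest library of cluster 18 lay above the highest library of the other cells, which their choice by ratio favored.

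*Hsd11b1*, which regenerates active glucocorticoid, stood at 1.04, 1.46 and 1.34, against 0.0327, 0.0462 and 0.0783. *Cacna2d1*, a calcium channel subunit, stood at 8.63, 8.56 and 4.74, against 0.612, 0.690 and 0.700. The axon guidance genes *Robo2* and *Ntng1* were on the list, at 0.890, 0.885 and 0.731 and 0.998, 0.904 and 0.770. The leading genes also included *Arhgap20*, *Ttc39c*, *Serinc5*, *Fam13c*, *Iqcj*, *Cited1*, *Kctd1*, *Gadd45a*, *Tmsb10* and *Slco3a1*. The last gene inside the list, *Slco3a1*, had a lowest ratio of 3.49, and the first outside it, *Vcan*, *Pdgfra* and *Metrnl*, had 3.41, 3.40 and 3.23.

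By its whole profile cluster 18 was most like cluster 17. Pearson's r across 31053 genes (log2 of the level plus 0.1) was 0.967, 0.966 and 0.978 with cluster 17 and 0.958, 0.963 and 0.978 with TM9, and TM8, TM7 and TM2 followed in each library. Genes are not independent, and labels of a library share its free RNA, so these values are a description. Of 4 uveal stroma markers, *Col23a1* stood at 2.88, 3.58 and 2.80, against 2.33, 2.19 and 3.15 in cluster 17. *Pdgfra* stood at 2.48, 3.99 and 3.50, against 1.12, 1.22 and 2.04, and *Pdgfrb* at 1.23, 1.66 and 0.633, against 0.742, 0.857 and 0.895. *Gpc3* went the other way, at 0.0895, 0.276 and 0.0415, against 1.21, 1.41 and 0.679, and TM7 or TM8 held its highest level in each library.

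Markers that define other cell types were mostly at or near 0. No UMI of trabecular *Nell2*, endothelial *Tek*, neural *Gfap* or the ciliary epithelium genes *Pax6* and *Otx1* was seen in the 1000 cells. All 6 macrophage, 3 lymphocyte, 3 ciliary epithelium and 4 glial markers stayed below 0.1 in every library. The summed level of 6 melanocyte markers was 0.914, 1.01 and 0.889, and that of 5 surface epithelium markers 1.07, 0.662 and 0.769. *Cldn5*, a tight junction gene known from endothelium, was an exception at 3.48, 1.72 and 6.77, against 0.465, 0.0227 and 0.495 in cluster 17. The other 4 endothelial markers were below 0.1 in every library, and the summed endothelial level of 3.59, 1.78 and 6.79 was almost all *Cldn5*. Of 5 smooth muscle markers, *Des* stood at 1.06, 0.971 and 1.03 and *Smtn* at 0.766, 0.813 and 1.08, and the other 3 were below 0.1. The 4 hemoglobin genes that mark red blood cells summed to 0.335, 0.244 and 9.95, highest in *Angpt1*ΔNC, where most of it lay in 1 cell described below. Of the remaining lists, trabecular meshwork summed to 0.523, 0.193 and 0.107, corneal endothelium to 0.278, 0.317 and 0.219, keratocytes to 0.232, 0.245 and 0.0986, *Cd34* fibroblasts to 0.915, 0.966 and 0.833 and pericytes to 0.528, 0.4996 and 0.348.

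Against cluster 17, its nearest label, the genes higher in cluster 18 were led by *Igf1*, *Enpp2*, *Ptn* and *Mmp19*, with lowest library ratios of 9.10, 7.38, 6.44 and 5.96. *Edn3*, an endothelin that acts on melanocytes and their precursors, stood at 5.66, 5.93 and 5.83, against 1.37, 0.915 and 1.22. *Lpar1*, a receptor for the lipid that autotaxin makes, stood at 0.878, 0.677 and 0.516, against 0.120, 0.108 and 0.0901, and *Tfpi2*, a secreted protease inhibitor, at 3.28, 7.95 and 4.72, against 0.684, 0.843 and 1.37. *Hsd11b1*, *Serinc5*, *Ttc39c*, *Fam13c*, *Has1*, *Vegfa* and *Lamb1* were also among the 15 highest.

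Genes higher in cluster 17 included a contractile gene and genes of the collagen matrix. *Acta2*, smooth muscle actin, stood at 16.6, 8.96 and 4.60 in cluster 17 and at 0.523, 0.238 and 0.5998 in cluster 18. *Emb*, which encodes the adhesion protein embigin, led by ratio, at 4.22, 3.07 and 3.08 against 0.111, 0.0907 and 0.0842. The small proteoglycan genes *Fmod* and *Ogn* stood at 1.496, 1.80 and 1.42 and 2.90, 3.26 and 1.07 in cluster 17, and at 0.0881, 0.0404 and 0.0422 and 0.0113, 0.0447 and 0.0665 in cluster 18. *Lox*, which crosslinks collagen, stood at 1.97, 2.63 and 1.45 against 0.222, 0.562 and 0.132, and *Ptgis*, prostacyclin synthase, at 2.76, 3.34 and 2.83 against 0.195, 0.464 and 0.436. The others were *Cpe*, *1500015O10Rik*, *Clu*, *Ccdc3*, *Slc6a6*, *Ctnnal1*, *Smoc1*, *Pam* and *Rcan1*. Of these 30 genes, 17 stayed on the lists when 1 UMI per 10,000 was added to each level, and 16 when cells were thinned to 2000 UMIs.

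**Figure D2:**
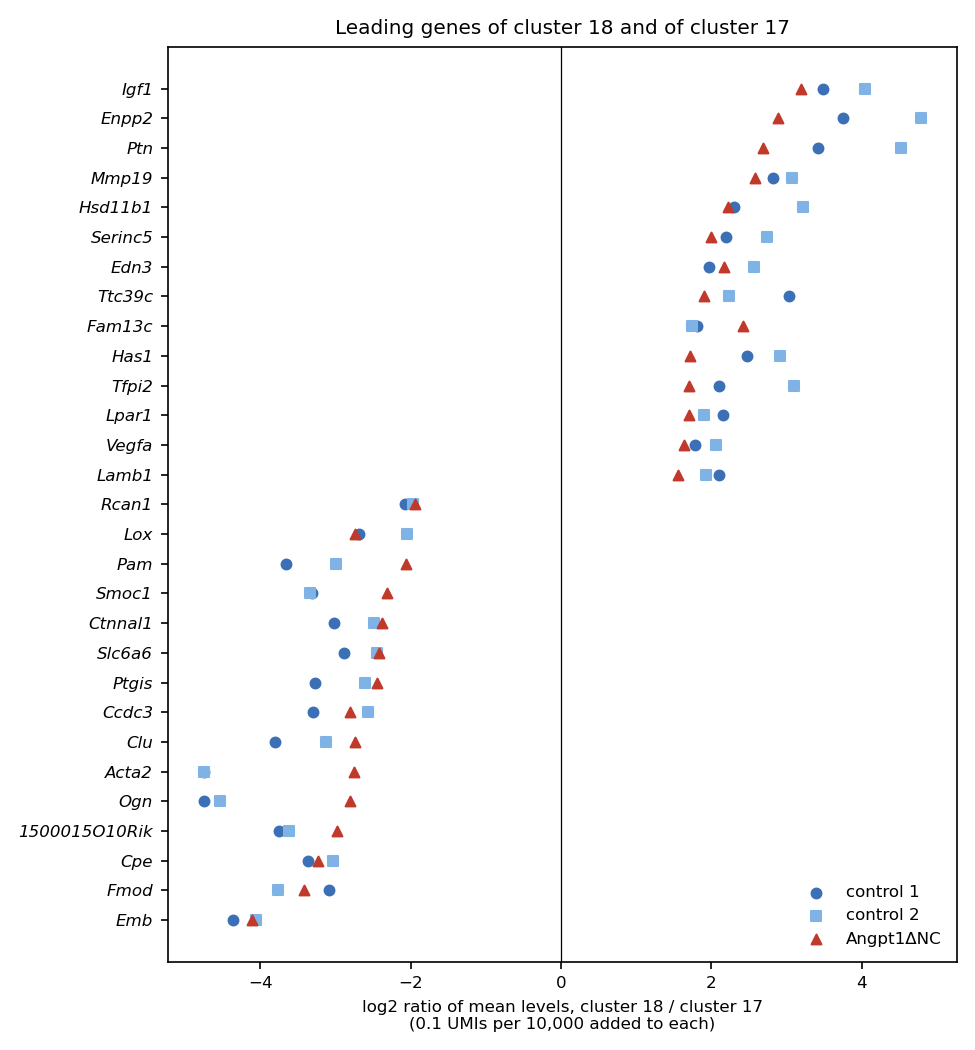
Log2 ratio of the mean level in cluster 18 to that in cluster 17 (x axis, 0.1 UMIs per 10,000 added to each) for genes among the 15 highest in each cluster, with 1 point per library. All 3 libraries lie on the same side of 0 for each gene, which the way the genes were chosen fixed.

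The deleted gene was barely seen in cluster 18, in controls too. *Angpt1* (chr15:42424723-42676977, minus strand), a ligand of the TEK receptor, had 3, 4 and 0 UMIs, in 0.664%, 2.42% and 0% of cells. A count of 0 in 534 cells allows a share of cells with a UMI of up to 0.562% at 3 counts, or 0.688% by the exact 95% Clopper-Pearson interval, and at this depth it does not limit the share that expresses the gene. In limbal and corneal epithelium, 0.303%, 0.494% and 0% of cells carried a UMI at the greater depths given above. In cluster 17 the shares were 21.9%, 17.97% and 0.112%, and in TM6 to TM9 47.9%, 49.8% and 0.708%. So few UMIs in the controls leave cluster 18 with no check of the deletion of its own, and the check rests on the neighbouring stroma.

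The genotype comparison asks what differed in these cells between the *Angpt1*ΔNC pool and both control pools. UMIs were summed per library over the cells of cluster 18 and tested with edgeR's quasi-likelihood test at a Benjamini-Hochberg adjusted p under 0.05, in which the lone *Angpt1*ΔNC library is assumed to vary like the controls. Of 8724 genes tested, 131 were higher in *Angpt1*ΔNC (1.5%) and 150 lower (1.72%), 3.22% in all. DESeq2 called 25 higher and 31 lower (0.831% of 6741), all of them among the 281. Below, levels are CPM, the counts of a gene per 1000000 of the summed UMIs, and differences are log2 fold changes ± the standard error of the fit.

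Apart from *Xist* and the hemoglobin genes, which are given below, *Mmp3* and *Mmp12* had the smallest p among the genes named here that rose in *Angpt1*ΔNC. *Mmp3*, the matrix protease stromelysin, stood at 3.09, 2.48 and 149.8 CPM (5.76 ± 0.39, adjusted p = 8.70e-14), and *Mmp12*, an elastase, at 2.47, 2.48 and 111 CPM (5.54 ± 0.41, adjusted p = 1.14e-12). The controls had 5 and 2 *Mmp3* UMIs and 4 and 2 *Mmp12* UMIs, and a single cell carried 30.3% and 15.4% of those in *Angpt1*ΔNC. Only 1.33%, 1.21% and 5.06% of cells had a UMI of *Mmp3*, and 0.997%, 1.21% and 4.68% one of *Mmp12*, so most cells had neither in any library. *Igfbp2*, which binds insulin-like growth factors, rose from 267 and 171 to 736 CPM (1.82 ± 0.25, adjusted p = 3.22e-06). *Esm1*, a secreted proteoglycan, rose from 149 and 111 to 453 CPM (1.87 ± 0.25, adjusted p = 1.56e-06).

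Other genes that rose code for proteins inside the cell or in its membrane. *Msc*, the transcription factor musculin, rose from 35.8 and 34.8 to 164 CPM (2.30 ± 0.28, adjusted p = 2.84e-07). *Kif21a*, a kinesin, rose from 7.41 and 7.45 to 125 CPM (4.15 ± 0.34, adjusted p = 2.09e-11), and *Slc25a37*, the mitochondrial iron importer, rose from 35.2 and 26.1 to 135 CPM. *Slc15a2*, a peptide transporter, rose from 8.64 and 1.24 to 51.5 CPM, with 14 and 1 UMIs in the controls, a log2 change of 3.19 that was 4.65 without control replicate 1 and 2.59 without control replicate 2. *Gbp2b*, *Rpl29* and *Tmem267* rose by 5.04, 1.94 and 1.70 on the log2 scale. In each of these genes *Angpt1*ΔNC lay above both controls, which the rule for naming them required together with a log2 change of at least 1. Of all genes tested, 112 higher and 136 lower ones met it (2.84%).

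The call of the hemoglobin genes rested on 1 cell. *Hbb-bs* stood at 16.7, 17.4 and 696 CPM, but 96.5% of its *Angpt1*ΔNC UMIs lay in a single cell, 51.0% of whose UMIs were hemoglobin. Without that cell the adjusted p was 0.533 for *Hbb-bs* and 0.942 for *Hba-a1*, and *Hba-a2* could not be tested. The counts over all genes were then 135 higher and 158 lower.

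Several of the genes that fell have near-identical copies, among which reads can be split, so their counts are uncertain. *H2-Q6* and *H2-Q7*, nonclassical histocompatibility genes, fell from 93.8 and 113 to 2.28 CPM and from 248 and 156 to 10.4 CPM. *C1s2* and *C1rb*, copies of complement protease genes, had 64 and 34 UMIs and 47 and 18 UMIs in the controls and none in *Angpt1*ΔNC, where they were at least 53.1-fold and 35.2-fold lower against a floor of 3 counts. *Gm10260* fell from 295 and 334 to 2.03 CPM, and *BC023719*, *Pianp*, *Gm11361* and *Gm10320* were also among the 15. Near-identical copies of these and of *Gm10260* were not looked for. *Il11ra1* (chr4:41699989-41769474, plus strand), the receptor of interleukin 11, stood at 20.4, 24.8 and 121 CPM, while its copy *Gm13305* (chr4:42158842-42168603, minus strand) stood at 149, 161 and 32.5 CPM. Their sum was 169, 186 and 154 CPM, lowest in *Angpt1*ΔNC; these copies were set side by side after their values were seen.

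The remaining genes that fell were *Nppc*, *Rbp4*, *Lypd1*, *Cd24a* and *Ttr*. *Nppc*, C-type natriuretic peptide, fell from 143 and 236 to 29.7 CPM (-2.59 ± 0.32, adjusted p = 6.57e-07). It was found in only 7.97%, 6.06% and 4.68% of cells, and 1 cell held 32.5% of its *Angpt1*ΔNC UMIs. *Lypd1*, a membrane-anchored protein, fell from 54.9 and 54.6 to 5.58 CPM (-3.20 ± 0.40, adjusted p = 6.57e-07), and *Cd24a*, a surface glycoprotein, fell from 128 and 119 to 25.6 CPM (-2.19 ± 0.30, adjusted p = 4.60e-06). *Ttr*, transthyretin, is a gene of the retinal pigment epithelium in the eye and fell from 46.9 and 24.8 to 2.28 CPM. The other 3 pigment epithelium markers, *Rpe65*, *Rgr* and *Rlbp1*, were below 0.1 UMIs per 10,000 in every library and had no UMI in *Angpt1*ΔNC, and their part in the *Ttr* result was not tested.

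The same libraries were compared in cluster 17, and the difference between the clusters was tested with the library as a block. Of 11062 genes, 149 (1.35%) changed differently, 48 (0.434%) more upward and 101 (0.913%) more downward in cluster 18. Among the 30 genes just described, 8 did so: *Hbb-bs*, *Mmp12*, *Msc*, *Igfbp2*, *Slc15a2*, *Tmem267*, *Lypd1* and *Rbp4*. For the other 22 no difference passed, which does not show equal change. *Gm10260* stood at 231, 350.4 and 1.72 CPM in cluster 17, *H2-Q6* at 72.1, 74.0 and 1.72 CPM, *Rpl29* at 77.5, 80.0 and 239.9 CPM and *Kif21a* at 8.06, 9.79 and 62.9 CPM, with *Angpt1*ΔNC on the same side of both controls as in cluster 18.

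**Figure D3:**
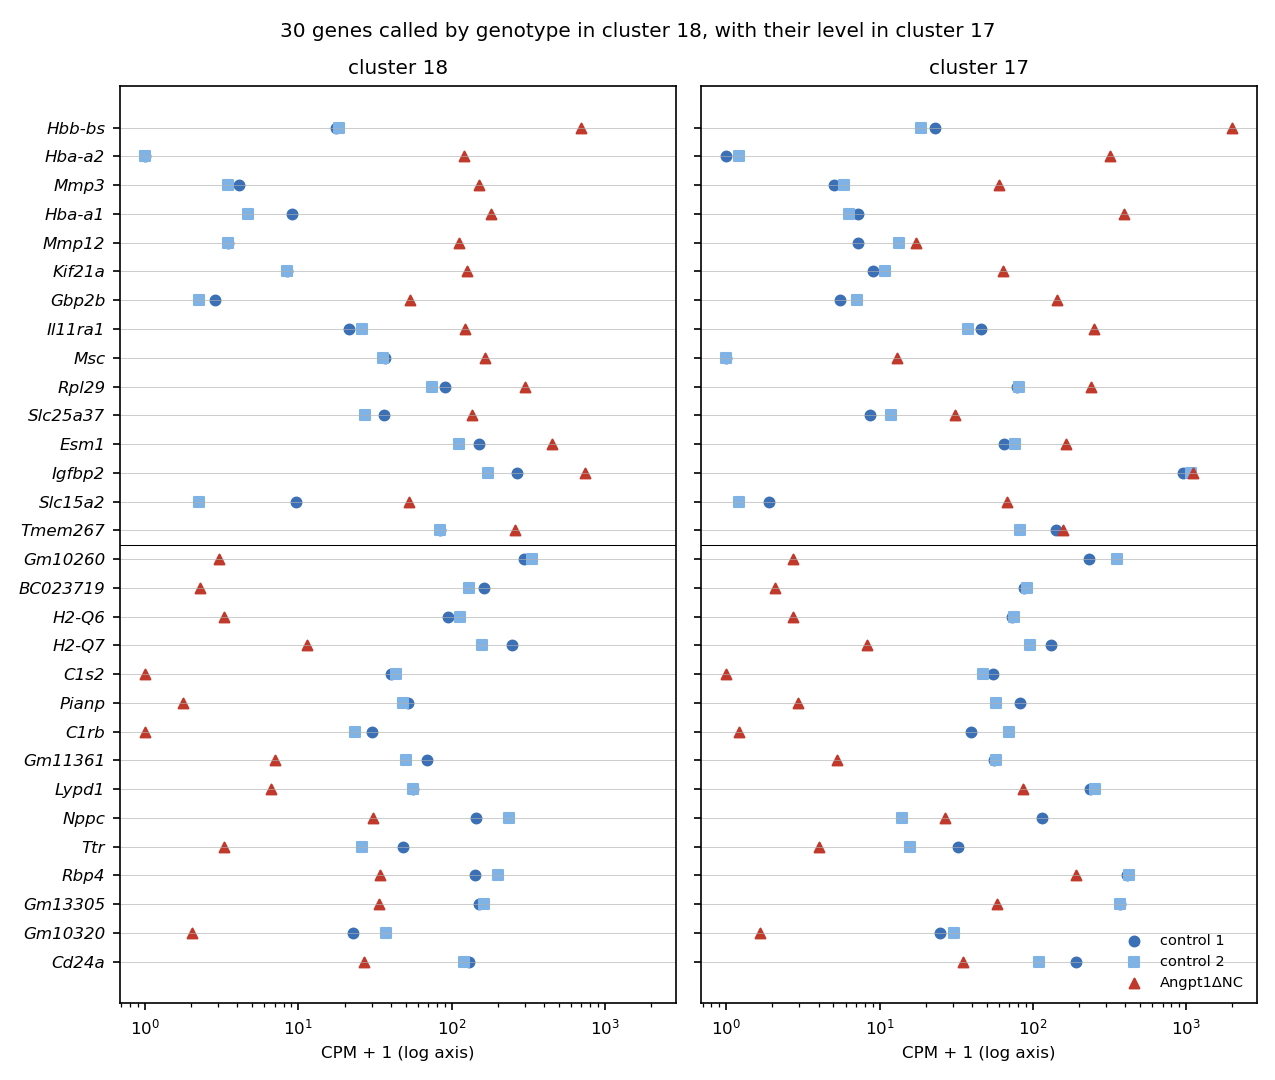
CPM plus 1 (log axis) of the 15 genes named as higher (above the line) and the 15 named as lower in *Angpt1*ΔNC, in cluster 18 (left) and cluster 17 (right), with 1 point per library. In cluster 18 the *Angpt1*ΔNC triangle lies outside both controls for every gene, while for *Igfbp2* the 3 libraries nearly coincide in cluster 17.

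*Mmp12*, *Igfbp2*, *Bmp2* and *Col15a1* were among the genes that changed differently from cluster 17. *Mmp12* stood at 6.27, 12.3 and 16.4 CPM in cluster 17, and the difference between the clusters was 4.44 ± 0.55, adjusted p = 2.08e-06. *Igfbp2* stood at 946, 1080.2 and 1097 CPM there (1.56 ± 0.27, adjusted p = 3.73e-04). *Bmp2*, a bone morphogenetic protein, rose from 37.0 and 18.6 to 96.7 CPM in cluster 18 (1.80 ± 0.31, adjusted p = 1.39e-04) and stood at 92.3, 69.1 and 53.2 CPM in cluster 17, a difference of 2.31 ± 0.31, adjusted p = 1.45e-05. Against TM6 to TM9, the difference was 3.40, adjusted p = 0.00209 for *Mmp12*, and neither *Igfbp2* (-0.70, adjusted p = 0.587, the opposite sign) nor *Bmp2* (1.25, adjusted p = 0.109) passed. TM6 to TM9 were summed, and TM9 gave 204 of 1574, 298 of 1740 and 327 of 706 of their cells. The mix of this comparator thus differed between libraries, and its part in the differences was not tested. DESeq2 gave *Bmp2* an adjusted p of 0.161 in cluster 18. *Col15a1*, a collagen of basement membrane zones, fell from 76.5 and 73.3 to 16.8 CPM in cluster 18 (-2.08 ± 0.33, adjusted p = 3.82e-05) and stood at 13.4, 9.15 and 15.7 CPM in cluster 17, a difference of -2.74 ± 0.41, adjusted p = 6.37e-05, and against TM6 to TM9 of -3.24, adjusted p = 7.61e-05.

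Of the tested genes of the retinoic acid pathway, 5 of 12 fell in *Angpt1*ΔNC, where 1.72% of all genes tested were called lower. The list was chosen with earlier results of these data known, so the count is a description and no test of the pathway. Retinoic acid is made from vitamin A, which RBP4 carries, by retinaldehyde dehydrogenases such as ALDH1A2, and it acts through nuclear receptors such as RARA. It is known to act on neural crest derived tissue around the developing eye. The list held 16 genes, 4 of them too low to test. None was called higher, though 3 of the 12 tested had a positive log2 change. The median log2 change of the 12 was -0.98, against -0.02 over all genes tested. With male-typed cells alone, 1 gene of the list was called higher and 4 lower.

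*Rbp4* (chr19:38116629-38125281, minus strand) stood at 142, 199.96 and 33.3 CPM (-2.28 ± 0.31, adjusted p = 2.87e-06). *Aldh1a2* (chr9:71215789-71296243, plus strand) stood at 137, 122 and 59.9 CPM (-1.04 ± 0.28, adjusted p = 0.0236). The controls were close to each other in *Aldh1a2*, and in both genes *Angpt1*ΔNC lay below them. *Crabp2* (chr3:87948666-87953376, plus strand), which carries retinoic acid to the nucleus, stood at 104, 68.3 and 30.2 CPM (-1.45 ± 0.31, adjusted p = 0.00303), and *Rara* (chr11:98927818-98974942, plus strand) at 72.2, 69.5 and 32.0 CPM (-1.07 ± 0.30, adjusted p = 0.0373). *Dhrs3* (chr4:144892827-144928209, plus strand), a retinaldehyde reductase, stood at 25.3, 9.94 and 5.08 CPM from 41, 8 and 20 UMIs (-1.81 ± 0.52, adjusted p = 0.0439), and its controls lay farther apart than control replicate 2 and *Angpt1*ΔNC did. Without control replicate 1 its log2 change was -0.86. Of the 7 that did not pass, *Rarb* stood at 70.4, 47.2 and 29.95 CPM, and *Rdh10*, which makes retinaldehyde, at 135, 147 and 141 CPM.

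*Aldh1a2* and *Rbp4* also changed differently from cluster 17. *Aldh1a2* stood at 27.8, 23.2 and 41.2 CPM there, a difference of -1.88 ± 0.30, adjusted p = 1.57e-04, and *Rbp4* at 410.3, 424 and 189 CPM, a difference of -1.26 ± 0.27, adjusted p = 0.00613. Against TM6 to TM9 the differences were -1.40, adjusted p = 0.0105 for *Aldh1a2* and -1.93, adjusted p = 0.00159 for *Rbp4*. On the per-cell scale of the marker genes, *Rbp4* stood at 1.45, 1.98 and 0.335 in cluster 18. It was also lowest in *Angpt1*ΔNC in TM6 (2.40, 2.27 and 1.52), TM7 (0.946, 1.30 and 0.107) and TM8 (4.53, 4.14 and 0.689). In TM9 it was not, at 3.18, 3.48 and 3.40. The part of the comparator's shift toward TM9, given above, was not tested. Under DESeq2, and with library totals as the only scaling, *Rbp4* alone of the list passed in cluster 18. The adjusted p of *Aldh1a2* was then 0.820 and 0.162.

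**Figure D4:**
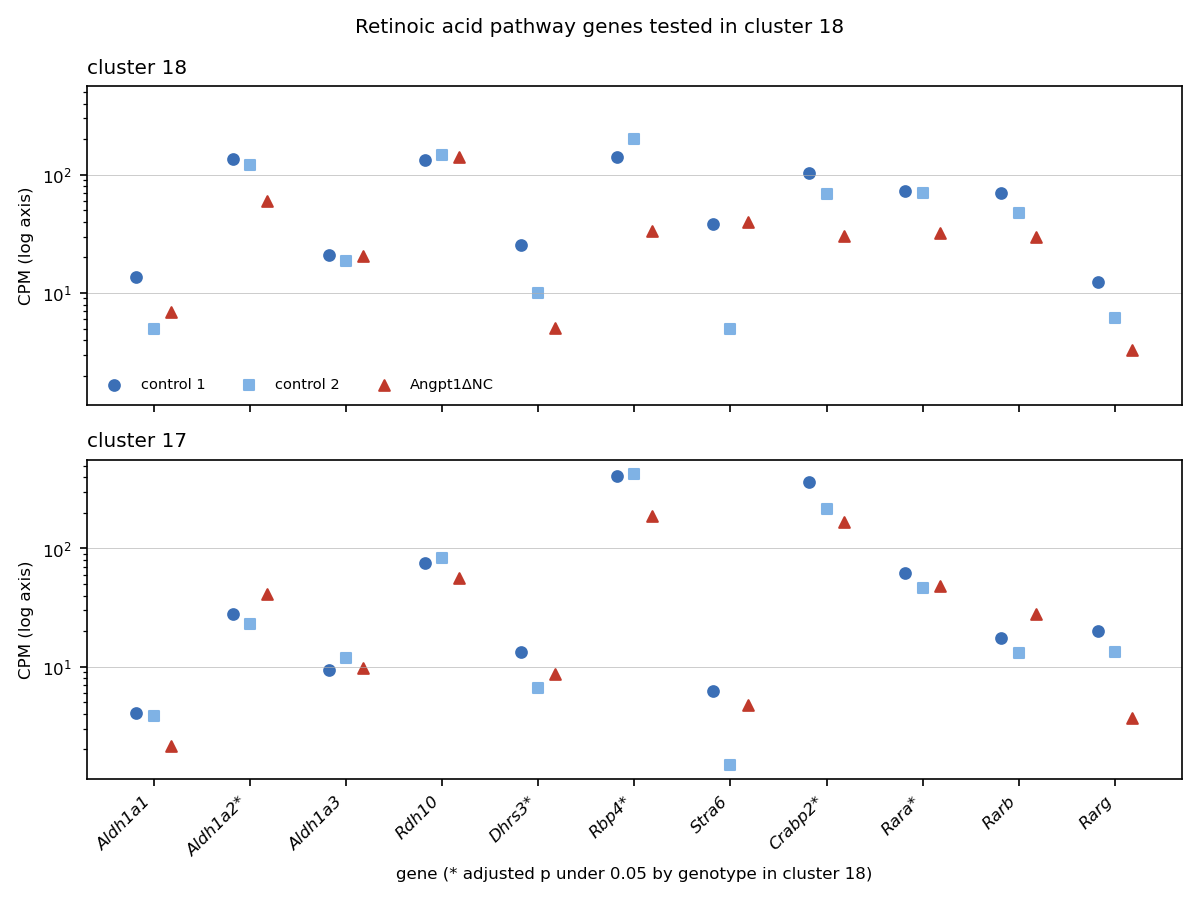
CPM (log axis) of retinoic acid pathway genes tested in cluster 18 (upper) and in cluster 17 (lower), with 1 point per library; an asterisk marks adjusted p under 0.05 in cluster 18. The *Angpt1*ΔNC triangle lies below both controls for the 5 marked genes in cluster 18, and above both for *Aldh1a2* in cluster 17.

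The promoters of *Aldh1a2* and *Rbp4* are shown because these genes passed in both tests, with the same 2 motifs in capitals. *Rbp4* has a further entry, and the window with a motif is printed.
*Aldh1a2*, chr9:71215539-71215838, plus strand: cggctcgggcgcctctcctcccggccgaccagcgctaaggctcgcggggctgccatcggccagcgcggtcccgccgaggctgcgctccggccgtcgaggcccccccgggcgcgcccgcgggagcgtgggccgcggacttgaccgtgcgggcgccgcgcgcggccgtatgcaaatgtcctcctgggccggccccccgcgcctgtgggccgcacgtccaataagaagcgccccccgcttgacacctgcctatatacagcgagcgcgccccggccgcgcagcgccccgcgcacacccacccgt
*Rbp4*, chr19:38124762-38125061, minus strand: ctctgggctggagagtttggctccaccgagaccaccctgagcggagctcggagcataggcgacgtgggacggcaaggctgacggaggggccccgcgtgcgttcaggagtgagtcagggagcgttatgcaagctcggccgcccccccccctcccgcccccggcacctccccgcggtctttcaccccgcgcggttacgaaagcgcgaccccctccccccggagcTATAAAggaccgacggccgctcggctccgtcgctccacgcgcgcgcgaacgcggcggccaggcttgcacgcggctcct
Neither held AGGTCA, and the *Rbp4* window held TATAAA at base 223. Of 10 windows of the 4 called genes with an entry, some of which overlap, 1 held AGGTCA.

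Genes that passed in the pathways of the marker genes are given here, beside 3.22% of all genes tested. Levels of the markers themselves define the cluster, so their differences by genotype are not read here. Of 6 tested genes of the lysophosphatidic acid pathway *Plpp3*, a phosphatase that breaks the lipid down, rose from 655 and 710.4 to 1156 CPM (0.83 ± 0.24, adjusted p = 0.0373). In cluster 17 *Plpp3* stood at 979, 1116 and 1483 CPM, also highest in *Angpt1*ΔNC. Its call in cluster 18 was lost under DESeq2, with library totals as the only scaling, and with male-typed cells alone. Of 9 tested genes around pleiotrophin none passed. *Mdk*, midkine, stood at 455, 702 and 336 CPM, the surface partner *Sdc4* at 1969, 2029 and 2041 CPM and *Ncl* at 613, 619.7 and 654 CPM, while the receptor gene *Ptprz1* had 0.617, 2.48 and 0 CPM and *Alk* had no UMI. Of 9 tested IGF genes *Igfbp2* alone passed. The receptor gene *Igf1r* stood at 31.5, 27.3 and 37.1 CPM, and the binding protein genes *Igfbp4* and *Igfbp7* at 1900.2, 1999.6 and 1727 CPM and 3637, 4154 and 2951 CPM.

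In the Wnt pathway 1 gene passed in each of 3 lists, beside 3.22% of all genes tested. Of 8 tested ligands *Wnt11* fell from 287 and 222 to 111 CPM (-1.13 ± 0.26, adjusted p = 0.00816), while *Wnt4* stood at 145, 63.3 and 93.7 CPM and *Wnt5a* at 106, 74.5 and 107 CPM. Of 7 tested antagonists *Sfrp2* rose, from 10 and 1 UMIs to 69, 34.8% of which came from 1 cell, and its log2 change of 2.07 was 3.14 without control replicate 1. Of 18 tested receptors and targets *Fzd1* rose from 21.6 and 22.4 to 48.0 CPM (1.21 ± 0.33, adjusted p = 0.0313). DESeq2 gave *Wnt11* and *Fzd1* adjusted p of 0.315 and 0.9998, and gave none for *Sfrp2*.

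In the lists of growth factors and matrix, the genes that passed likewise stand beside 3.22% of all genes tested. Of 21 tested TGF-beta and BMP genes *Bmp2* rose and *Fst*, follistatin, fell. *Fst* stood at 48.1, 161 and 27.2 CPM, and without control replicate 2 its log2 change of -1.82 was -0.69. Of 20 tested collagens *Col15a1* alone passed. Of 21 tested proteoglycan and matrix genes *Fn1*, fibronectin, rose from 87.0 and 59.6 to 146 CPM and *Vcan*, versican, fell from 188 and 119 to 73.6 CPM. Of 7 tested angiogenic ligands *Cxcl12*, a chemokine, fell, at 504, 1049 and 361 CPM, with a log2 change of -1.04 that was -0.36 without control replicate 2. *Vegfa* did not pass, at 1178, 1031 and 1131 CPM. Among 11 tested drug targets *Ptgs2*, cyclooxygenase 2, rose from 384 and 877 to 1249 CPM and *Ptgds*, prostaglandin D synthase, fell from 119.7 and 117 to 53.3 CPM. The log2 change of *Ptgs2* was 1.05, 0.51 without control replicate 1 and 1.82 without control replicate 2. None of 13 tested transcription factors of the anterior segment passed, with *Foxc1* at 127, 165 and 147 CPM and *Lmx1b* at 19.7, 24.8 and 19.0 CPM, and DESeq2 called none of them.

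Genes of cell stress differed as well. Of 12 tested immediate early genes *Fos* and *Fosb* fell, beside 1.72% of all genes called lower. *Fos* went from 252 and 391 to 124 CPM and *Fosb* from 1034 and 751 to 435 CPM. Both were also lowest in *Angpt1*ΔNC in cluster 17, at 2050, 868 and 778 CPM and at 1139, 1061 and 555 CPM. Of 8 tested heat shock genes 3 fell (1.72% of all genes were called lower): *Hspa1a* stood at 140.1, 493 and 37.8 CPM, its near-identical copy *Hspa1b* at 51.2, 169 and 16.8 CPM and *Dnajb1* at 206, 189 and 74.9 CPM. The controls differed widely in the first pair, whose log2 changes of -2.99 and -2.59 were -1.75 and -1.46 without control replicate 2 and -3.67 and -3.27 without control replicate 1. In cluster 17 *Dnajb1* stood at 337, 320 and 139 CPM and *Hspa1b* at 98.1, 75.7 and 69.4 CPM, also lowest in *Angpt1*ΔNC. *Hspa1a* was not lowest there, at 329, 237 and 266 CPM. Of 12 tested interferon-stimulated genes *Ifit3* rose from 84.5 and 77.0 to 163 CPM, and it stood at 64.0, 58.7 and 355 CPM in cluster 17. The part of dissociation in the other differences was not tested. Over the 16 lists without sex-linked genes, 8 of 194 tested genes rose and 16 fell, beside 1.5% and 1.72% of all genes tested, and DESeq2 called 3 of these 24, *Igfbp2*, *Rbp4* and *Col15a1*.

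The sexes were unequal between the pools, so the values of both kinds of *Angpt1*ΔNC cells are given. With male-typed cells alone, 101 genes were higher and 163 lower, and 186 of the 281 were called again. In male-typed and female-typed *Angpt1*ΔNC cells, *Rbp4* stood at 29.5 and 34.4 CPM, *Aldh1a2* at 54.8 and 66.3 CPM and *Mmp12* at 103 and 104 CPM. *Igfbp2* stood at 548 and 955 CPM, *Bmp2* at 127 and 68.8 CPM and *Gm13305* at 63.2 and 1.496 CPM, so that these were less alike. Cells of 1 pool are not replicates, and no test was made between them. *Xist* had no UMI in the controls and stood at 833 CPM in *Angpt1*ΔNC, at least 674-fold higher against a floor of 3 counts over both controls.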

How the data were processed

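Dissociated cells of the limbal region were captured on the 10x Genomics platform in 2 control libraries and 1 *Angpt1*ΔNC library. The deposited matrices hold raw UMI counts per gene and cell on mm10 (GRCm38), made by the authors with Cell Ranger (2.1.1 in the submitters' processing notes, while the file headers and the study's reporting summary name a later major version). The authors removed cells with few genes or UMIs or over 10% mitochondrial reads, removed doublets with scDblFinder, and integrated and clustered the kept cells with Seurat 3.1.3. Their cell tables gave the cluster labels used here, and the integrated expression values beside them were not used. Coordinates are of GRCm38, and promoter sequences are from RefSeq.

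Kept barcodes were matched to each library's matrix with Python 3.11.15. Levels are averages of UMIs per 10,000, and 0.1 was added to each before a ratio. Leading genes were detected in at least 25% of cells of the higher label in each library, and were ranked by the lowest of the 3 library ratios. For the genotype comparison, counts were summed per library and tested with edgeR 4.0.16 (glmQLFit, filterByExpr, TMM scaling), with DESeq2 1.42.0 as an alternative, and for the difference between clusters 18 and 17 in one model with the library as a block. The scripts were tested on simulated data. The 2 to 3 mice of a library were pooled, so p-values measure the spread between 2 control pools, with 1 residual degree of freedom and a spread shared across genes. Genes named in that comparison were the 15 with the smallest p in each direction with a log2 change of at least 1 and *Angpt1*ΔNC outside both controls, and the members of 16 lists that passed an adjusted p of 0.05. A few genes of these lists are not reported here. The members and lists were chosen with earlier results of these data known. Alternatives were other size factors, no filter, equal cell numbers, male-typed cells, cells of at most 15000 UMIs, removal of hemoglobin-rich cells, thinning, and leaving out each control. The depth limit, the removal of hemoglobin-rich cells and some alternatives for the lists were chosen after the data were seen.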

Additional observations from a re-analysis of the deposited data

Results flagged for a closer look

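The genotype change of 17 of the named genes differed between clusters 18 and 17, by edgeR's test of the difference itself with Benjamini-Hochberg adjustment. A negative value means a lower change in cluster 18 than in cluster 17.

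Among secreted and matrix genes, the difference in log2 change was 4.44 for *Mmp12*, 1.56 for *Igfbp2*, 2.31 for *Bmp2* and 1.40 for *Fn1*. It was -2.74 for *Col15a1*, -1.42 for *Vcan* and -1.38 for *Cxcl12*. *Fn1* stood at 84.7, 140.2 and 76.5 CPM in cluster 17, where *Angpt1*ΔNC was the lowest library, *Vcan* at 26.4, 16.4 and 26.1 CPM and *Cxcl12* at 646, 564 and 737 CPM. For *Rbp4* it was -1.26 and for *Aldh1a2* -1.88.

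For *Msc*, *Slc15a2*, *Hbb-bs* and *Ifit3*, which passed as higher in cluster 18, the change in cluster 17 was larger. The difference was -5.91 for *Msc*, a fitted value and no bound, since its controls in cluster 17 had no UMI. It was -3.44 for *Slc15a2*, which stood at 0.896, 0.213 and 66.8 CPM in cluster 17, and -1.59 for *Ifit3*. It was -1.34 for *Hbb-bs*, at 21.9, 17.7 and 1978 CPM in cluster 17, and in cluster 18 1 cell held 96.5% of its *Angpt1*ΔNC UMIs.

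The other differences were 1.05 for *Tmem267* and -1.86 for *Lypd1*, which stood at 234, 252 and 85.4 CPM in cluster 17. For the heat shock genes they were -2.84 for *Hspa1a* and -2.30 for *Hspa1b*, at 329, 237 and 266 CPM and 98.1, 75.7 and 69.4 CPM in cluster 17.

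Against TM6 to TM9 in place of cluster 17, 6 of these 17 differences passed, those of *Mmp12*, *Lypd1*, *Rbp4*, *Aldh1a2*, *Col15a1* and *Cxcl12*, each with the same sign. The other 11 did not pass, and *Igfbp2* (-0.70, adjusted p = 0.587), *Msc* (0.20, adjusted p = 0.925) and *Hbb-bs* (3.07, adjusted p = 0.0571) had the opposite sign, by edgeR's quasi-likelihood test. The values were 1.25, adjusted p = 0.109 for *Bmp2*, 1.21, adjusted p = 0.0985 for *Fn1* and -1.14, adjusted p = 0.104 for *Vcan*. TM9 made up 204 of 1574, 298 of 1740 and 327 of 706 cells of this comparator, and the part of this shift was not tested.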

How the results depend on the processing

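The number of genes that differed by genotype depended most on the test and the scaling. DESeq2 called 25 genes higher and 31 lower, and library totals as the only scaling gave 24 higher and 33 lower, against 131 and 150, while with totals the median log2 change over all genes moved from -0.02 to -0.10. Of the list members, each of these settings called 1 higher and 2 lower, against 8 and 16. The 30 genes named by p were called under both. No filter on low counts gave 185 and 169, and at most 15000 UMIs per cell 194 and 206. The cause was not tested. With equal numbers of cells *Hba-a1* reversed, to -0.59. Of 53 named genes, DESeq2 kept the call of 32, lost that of 20 and gave no adjusted p for 1, and library totals kept 32 and lost 21. Median-of-ratios factors and the depth limit kept all 53, no filter 52, removal of hemoglobin-rich cells 50, equal cell numbers 45 and male-typed cells 43.

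Without control replicate 1 the log2 change of 23 of the 53 genes moved by more than 1 standard error, and without control replicate 2 that of 20, and none turned direction. With 1 library against 1 there was no residual degree of freedom, so these are values with no test. Over clusters 17, 18 and TM1 to TM11 the share of cluster 18 was 8.43%, 3.74% and 15.8%. Of the 30 genes that set clusters 18 and 17 apart, 17 stayed with 1 UMI per 10,000 added and 16 after thinning. With cells thinned to 2000 UMIs, *Angpt1* was found in 0% of cluster 18 cells in both controls. No paired analysis was possible because there was only 1 *Angpt1*ΔNC library and the replicate numbers follow accession order.

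The single *Angpt1*ΔNC pool limits every genotype result. Control replicate 2 gave 165 cells, so its values rest on the fewest UMIs, and intervals on shares cover counting error only. Genes with a few UMIs in the controls, such as *Mmp3* and *Slc15a2*, have imprecise fold changes.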

Other observations

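Of 12 tested interferon-stimulated genes, *Ifit3* alone passed by genotype in cluster 18, while the change of 5, *Isg15*, *Ifit1*, *Ifit3*, *Oasl2* and *Rtp4*, was lower in cluster 18 than in cluster 17 (0.913% of all genes tested were) by edgeR's quasi-likelihood test of the difference with Benjamini-Hochberg adjustment. *Isg15*, a ubiquitin-like protein, stood at 1221, 1134 and 887 CPM in cluster 18 and at 1380.4, 705 and 1460.5 CPM in cluster 17, a difference of -1.04 ± 0.27, adjusted p = 0.0350. *Ifit1* stood at 237, 384 and 174 CPM and 378, 336 and 727 CPM, a difference of -1.90 ± 0.28, adjusted p = 4.33e-05.

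*Cldn5*, a claudin of tight junctions, rose in *Angpt1*ΔNC in cluster 18, from 318 and 195 to 667 CPM (1.45 ± 0.25, adjusted p = 1.82e-04, edgeR's quasi-likelihood test). *Stc1* rose from 361 and 479 to 1127 CPM (1.496 ± 0.24, adjusted p = 7.14e-05). Both genes were picked out after their values were seen. In TM9 *Cldn5* stood at 0.00758, 0.0186 and 1.53 UMIs per 10,000, also highest in *Angpt1*ΔNC. *Edn3* in cluster 18 was level across libraries, at 5.66, 5.93 and 5.83 UMIs per 10,000, but the label with its highest level was TM6 or TM7 in the controls and cluster 18 in *Angpt1*ΔNC. The gene of its receptor, *Ednrb*, was highest in the melanocytes of cluster 8 in each library, followed by those of cluster 9.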
